A study of Mus musculus with 27 samples.

Results

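Interferon-stimulated genes are switched on in a cell when interferons, proteins secreted during infection and other stress, bind their receptors on its surface.
The 45 genes described here came from a list of gene symbols, and a gene was kept if it had at least 10 counts summed over the 27 libraries. All 45 of the 45 listed symbols passed, among 22415 genes that passed the same minimum and 50559 genes in the deposited table.
The libraries measured polyadenylated RNA of mouse thyroid gland organoids, small clusters of cells grown in a gel, by Smart3SEQ, which sequences the 3′ end of each transcript.
The organoids came from C57BL/6 mice that were 8-12 weeks old and grew in Matrigel in medium with EGF, FGF2, the kinase inhibitor Y27632 and B27.
After 5 days they were left at 0 Gy or given 2, 4 or 7 Gy of photons, and they were collected on day 7 or day 11, which is 2 or 6 days after the exposure. Organoids collected on day 5 had no exposure.
Each of the 9 groups of day and dose holds 3 libraries, 1 from each of 3 cultures named mTG11, mTG12 and mTG14 in the column names. The sample titles number the mice 1 to 3 and the series text speaks of 4 mice, and neither says which mouse gave which culture.

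Library totals ran from 2528866 to 5723150 counts. Levels are given as CPM, counts divided by the library's total and multiplied by 1e+06, and 3 values in a row are always mTG11, mTG12 and mTG14 in that order.
A gene with 3 counts stood at 0.524 CPM in the largest library and at 1.19 CPM in the smallest, and this was taken as the floor.
Changes were tested with the quasi-likelihood test of edgeR in fits over all genes, and a gene was called where its adjusted p (Benjamini-Hochberg, over all genes tested) was under 0.05. A log2 change is given ± its standard error, and a change with time is that from day 5 to day 11 at 0 Gy.
Where another fit, which compared the libraries within each culture (the culture block), gave a different call, its adjusted p is added with the range over all alternative fits. Each library compared was also left out in turn, and the leave-out range is the lowest to the highest adjusted p of those fits, given where a call changed.

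Type I and type III interferons bind receptors made of Ifnar1 and Ifnar2 or of Ifnlr1 and Il10rb, and the kinases Jak1 and Tyk2 at these receptors then phosphorylate STAT proteins, Stat2 among them. The phosphorylated STAT complex joins Irf9 and binds the interferon-stimulated response element, a motif built from GAAA repeats, in the promoters of the target genes. The targets include sensors of foreign RNA and DNA, enzymes that degrade or modify viral RNA, proteins that block viral entry or assembly, and feedback regulators such as Usp18. Thyroid follicular cells carry these receptors, and thyroid disease is a known side effect of interferon treatment.

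The tissue label was checked against marker genes. Of 9 follicular cell markers, 6 had at least 10 counts, and 3 had fewer, among them Slc5a5 and Iyd, which handle iodide for thyroid hormone. Foxe1, a thyroid transcription factor that other foregut epithelia also express, had the largest mean level of the list, 29.8 CPM, with 20.3 to 43.0 CPM over the 27 libraries. Tg, which encodes thyroglobulin, measured 4.48, 16.7 and 4.28 CPM on day 5 and 0.238, 6.17 and 0.550 on day 11 at 0 Gy. The summed level of the 9 markers ran from 35.8 to 145 CPM. Krt5, a keratin of basal epithelial cells, had a mean of 4041 CPM, with 1996 to 6433 CPM. With time Nkx2-1 (0.75 ± 0.19, adjusted p = 0.00632) and Krt18 (2.30 ± 0.18, adjusted p = 1.11e-06) rose. Krt5 measured 5556, 6433 and 6328 CPM on day 5 and 2182, 2947 and 2355 on day 11 at 0 Gy, and Krt14 5839, 7178 and 7530.3 and 810.4, 1809.6 and 1116. Duox2, an oxidase of hormone synthesis, measured 0.689, 0 and 0.855 CPM on day 5 and 82.5, 42.6 and 67.8 on day 11. None of these 3 genes overlapped between the days. With time, the basal keratins Krt5 (-1.15 ± 0.11) and Krt14 (-2.31 ± 0.24) fell, and Epcam (1.64 ± 0.09), Krt8 (1.43 ± 0.22) and Duox2 (6.92 ± 0.45) rose, with adjusted p at most 0.000246. At 7 Gy on day 11 the summed follicular level was 78.0, 79.0 and 89.3 CPM against 131, 95.2 and 126 at 0 Gy. Duox2 was 39.8, 31.9 and 40.7, and Nkx2-1 was 15.9, 13.1 and 13.4 against 17.9, 17.2 and 21.2. The sum, Duox2 and Nkx2-1 were each lower without overlap, and Duox2 was the largest part of the sum in each culture at 0 and 7 Gy. Foxe1 overlapped, with 21.5, 28.9 and 33.6 CPM at 7 Gy against 30.0, 28.7 and 35.2. Tg also overlapped, with 0.699, 4.68 and 1.37 CPM against 0.238, 6.17 and 0.550, higher at 7 Gy in mTG11 and mTG14. On neither day did edgeR or DESeq2 call a follicular or epithelial marker at 7 Gy (unadjusted by edgeR, 1 of each list higher on day 7 and 1 follicular lower on day 11), while the culture block called Duox2 lower (-0.82 ± 0.28, adjusted p = 0.175, 0.000954 with the block) and Krt14 higher (0.40 ± 0.33, adjusted p = 0.642, 0.00631 with the block) on day 11. Whether the cell mix had a part in the levels of the 45 genes was not tested. The libraries are epithelial by these markers, with the follicular regulators Foxe1 and Nkx2-1 present, Pax8 at 23.19 counts over the 27 libraries and 3 of the 9 follicular markers under 10 counts.

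The dose labels were checked against 8 targets of p53, the factor that DNA damage activates. Their summed level on day 7 was 567, 651 and 610.3 CPM at 0 Gy, 962, 1124 and 1009 at 2 Gy, 1238, 1544 and 1168 at 4 Gy and 1529, 1711 and 1301 at 7 Gy. Every exposed library of day 7 lay above every library at 0 Gy of that day. On day 11 the sum was 1007, 1027 and 869 CPM at 0 Gy, 1200.4, 1107 and 1265 at 2 Gy, 981, 1438 and 1160.2 at 4 Gy and 1046, 1234 and 1081 at 7 Gy. The day 11 gap was narrow at 2 and 7 Gy, and at 4 Gy the groups overlapped. Of the 8 targets 4, 6 and 6 rose on day 7 at 2, 4 and 7 Gy, and 0 rose on day 11 at any dose by edgeR, with 2, 5 and 5 higher at an unadjusted p under 0.05 and 0 by DESeq2.

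The summed level of the 45 interferon-stimulated genes was 201, 219.9 and 207 CPM on day 5, 641, 436 and 431 on day 7 and 1640.3, 729 and 1159.9 on day 11 at 0 Gy. On day 7 it was 1031, 399.98 and 799 CPM at 2 Gy, 1492, 786 and 789.6 at 4 Gy and 2801, 829 and 1584 at 7 Gy. On day 11 it was 3075, 1177 and 2208 CPM at 2 Gy, 3649, 1576 and 2509 at 4 Gy and 4703, 2644 and 3471 at 7 Gy. The day 5 libraries lay closest together, both later days lay above them at 0 Gy, and at 7 Gy every library lay above every 0 Gy library of its day. At 2 Gy the groups overlapped on both days, and mTG12 at 2 Gy on day 7 was below all 0 Gy libraries of that day. Eif2ak2 alone made up 93.6, 104 and 96.8 CPM of the day 5 sums. In bulk RNA, fewer cells that express these genes and less RNA per cell cannot be told apart.

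**Figure D1:**
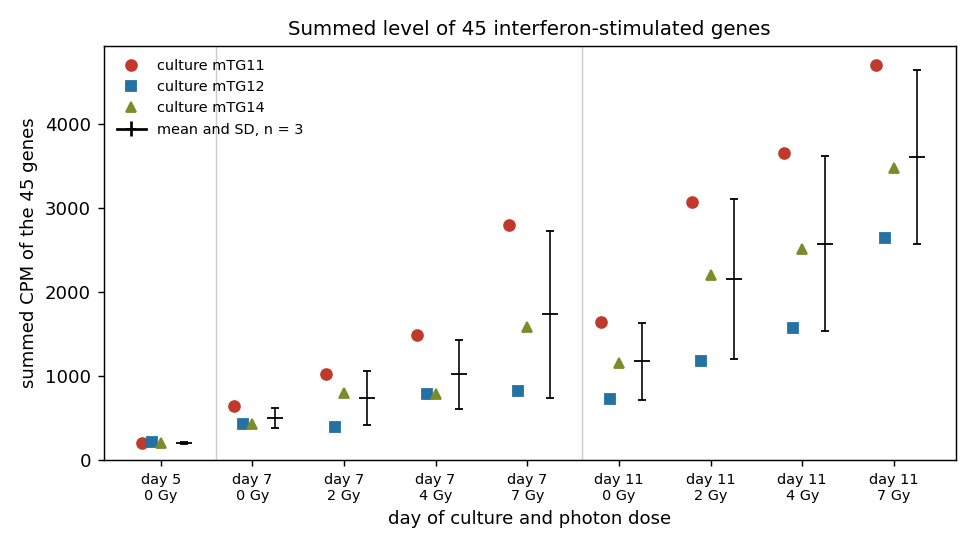
Summed CPM of the 45 interferon-stimulated genes (vertical axis, linear from 0) in each of the 9 groups of day and dose (horizontal axis), with 1 point for each library by culture and a bar for the mean and SD of 3 libraries. Culture mTG11 is the highest point of every group after day 5.

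The time question is which of these genes rose in organoids that were never exposed. Between day 5 and day 11 at 0 Gy 43 of the 45 rose and 0 fell by edgeR (44 higher and 0 lower at an unadjusted p under 0.05, 43 and 0 called by DESeq2), where 21.3% of all genes tested rose and 20.1% fell. The 2 that did not pass were Ifit2 and Cmpk2. With the culture block 43 rose, where 22.6% of all genes rose and 21% fell. Between day 5 and day 7 alone 25 rose (38 at an unadjusted p under 0.05), where 12% of all genes rose and 9.62% fell, and between day 7 and day 11 25 rose (37 unadjusted), where 9.57% rose and 11.7% fell. These comparisons share libraries. The median log2 change of the 45 was 4.17 from day 5 to day 11 against 0.06 over all genes, or 3.70 with the 4 genes that had no count on day 5 (Oas3, Ifit3b, Mx2 and Apol9a) at their lower bounds. From day 5 to day 7 the median was 2.48, or 2.16 with those bounds, against 0.04 over all genes, and from day 7 to day 11 it was 1.43 against 0.00.

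All 43 genes called from day 5 to day 11 were called in each of the 6 fits that left out 1 library, with 44 called without the day 5 library of mTG12. The day 5 to day 7 count was 15 without the day 5 library of mTG12 or mTG14 and 14 without the day 7 library of mTG11. The day 7 to day 11 count was 16 without the day 7 library of mTG14 or the day 11 library of mTG11.

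The dose question is which genes rose 2 days after the exposure. At 7 Gy on day 7 33 of the 45 rose and 0 fell by edgeR (41 higher and 0 lower at an unadjusted p under 0.05, 35 and 0 called by DESeq2), where 3.2% of all genes tested rose and 3.75% fell. At 4 Gy 0 of the 45 were called by edgeR (28 at an unadjusted p under 0.05, 5 by DESeq2), where 0.972% of all genes rose, 0.656% fell and 1.14% rose by DESeq2. At 2 Gy 0 were called (3 unadjusted, 0 by DESeq2), where 0.119% of all genes rose, 0.00517% fell and 0.243% rose by DESeq2. Compared within cultures by the block, 4, 31 and 40 of the 45 rose at 2, 4 and 7 Gy, where 0.424%, 2.84% and 5.4% of all genes rose and 0.295%, 2.38% and 6% fell. The median log2 change of the 45 on day 7 was 0.80, 1.71 and 2.70 at 2, 4 and 7 Gy, against 0.00, 0.01 and 0.01 over all genes. A slope of the log2 level per Gy over all 12 libraries of day 7 was called for 36 of the 45, all upward (42 unadjusted), where 3.9% of all genes sloped upward and 4.72% downward. With no filter beyond 1 count edgeR called some of the 45 at 2 and 4 Gy as well, with the counts in the section on processing. The 3 doses share the 0 Gy libraries of their day.

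The 7 Gy count of day 7 was 18 without the 0 Gy library of mTG12, 16 without the 0 Gy library of mTG14 and 17 without the 7 Gy library of mTG11. The slope count of day 7 was 19 without the 7 Gy library of mTG11. Called in each of the 6 fits that left out 1 library at 7 Gy were 16 of the 33 genes.

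On day 11, 6 days after the exposure, 15 of the 45 rose at 7 Gy and 0 fell by edgeR (41 higher and 0 lower at an unadjusted p under 0.05), where 1.06% of all genes tested rose and 0.462% fell. DESeq2 called 23 of the 45, where it called 1.37% of all genes higher. At 4 Gy 0 were called by edgeR (32 unadjusted, 2 by DESeq2), where 0.00502% of all genes rose, 0% fell and 0.136% rose by DESeq2. At 2 Gy 0 were called (20 unadjusted, 0 by DESeq2), where 0% of all genes rose, 0% fell and 0.00502% rose by DESeq2. The culture block brought these counts to 20, 32 and 42 of the 45 at 2, 4 and 7 Gy, where 0.281%, 0.864% and 3.6% of all genes rose and 0.0804%, 0.332% and 2.91% fell. With no filter beyond 1 count edgeR also called more of the 45 at each dose of day 11, with the counts in the section on processing. The median log2 change of the 45 on day 11 was 0.93, 1.18 and 1.56 at 2, 4 and 7 Gy, against -0.01, -0.01 and 0.01 over all genes. A slope with dose was called for 14 of the 45, all upward (41 unadjusted), where 1.73% of all genes sloped upward and 0.779% downward. DESeq2 called 22 slopes upward, where it called 2.46% of all genes, and with the culture block 40 were called, where 3.78% of all genes sloped upward and 3.01% downward.

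The 7 Gy count of day 11 was 9, 1 and 1 without the 0 Gy library of mTG11, mTG12 or mTG14, 3 without the 7 Gy library of mTG11 and 7 without the 7 Gy library of mTG14. The slope count of day 11 was 9 without the 0 Gy library of mTG14, 26 without the 2 Gy library of mTG11 and 4 without the 7 Gy library of mTG11. Dhx58, a helicase that regulates the sensors of viral RNA, was the 1 gene of the 15 called in each of the 6 fits that left out 1 library.

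Whether the 7 Gy response differed between the days was tested as an interaction. None of the 45 differed by edgeR, with 0 larger and 0 smaller on day 11 (0 and 4 at an unadjusted p under 0.05, 0 and 0 by DESeq2), where 2.2% of all genes had a larger and 0.807% a smaller response on day 11, and 2.23% and 0.898% by DESeq2. With the culture block the response of 1 gene, Ifi27l2a, was larger on day 11 and that of 9 genes was smaller, where 3.61% of all genes had a larger and 1.65% a smaller response. The 9 were Ifit1, Ifit3b, Mx1, Lgals3bp, Ifi35, Xaf1, Irf7, Oas3 and Ifi44.

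Upstream of these genes, the interferons themselves were near the limit of detection. Of 21 interferon genes listed, 15 had no count in any library and 0 reached 10 counts. Ifnz, an interferon zeta, had 9.94 estimated counts in 16 libraries, 9.08 of them in exposed libraries, Ifnl3, an interferon lambda, had 7.5 with 7 of them in exposed libraries, Ifnb1 had 1.25, Ifnab 1, and Ifna6 and Ifnl2 0.500 each. No interferon gene was tested at these counts.

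Among 9 receptor chains and kinases, 7 rose and 0 fell with time, where 21.3% of all genes rose and 20.1% fell. Ifnar2, a chain of the type I receptor, measured 13.6, 20.0 and 17.7 CPM on day 5 and 42.8, 37.4 and 39.8 on day 11. Ifnlr1, a chain of the type III receptor, measured 1.38, 1.14 and 3.71 CPM on day 5 and 9.88, 8.04 and 9.62 on day 11. In both genes the days did not overlap. Log2 changes with time were Ifnar1 (0.41 ± 0.13), Ifnar2 (1.37 ± 0.14), Ifnlr1 (2.21 ± 0.38), Il10rb (0.81 ± 0.16), Ifngr1 (1.56 ± 0.12), Ifngr2 (1.26 ± 0.13) and Jak2 (0.75 ± 0.12), with adjusted p at most 0.0241. Ifnar1 lost its time call without the day 5 0 Gy libraries of mTG11 or mTG12 or the day 11 0 Gy libraries of mTG12 or mTG14 (leave-out range 0.00985 to 0.0903), and by DESeq2 (adjusted p = 0.0975). At 7 Gy 0 of the 9 rose and 0 fell on either day by edgeR (0 higher and 2 lower at an unadjusted p under 0.05 on each day, 0 and 0 by DESeq2 on day 7 and 0 and 0 on day 11). The culture block called 0 of the 9 in either direction on both days (1 higher and 2 lower unadjusted on day 7, and 0 and 2 on day 11). Ifngr1 on day 7 measured 68.5, 74.2 and 71.8 CPM at 0 Gy and 55.6, 55.0 and 62.5 at 7 Gy. On day 11 Ifnar2 measured 35.4, 34.2 and 30.7 CPM and Ifnlr1 6.84, 5.22 and 4.92 at 7 Gy. All 3 were lower at 7 Gy in each culture without overlap, and none passed the test. The log2 change was -0.32 ± 0.11 for Ifngr1 on day 7 (adjusted p = 0.0996, 0.0648 to 0.369 over the alternatives). On day 11 it was -0.29 ± 0.11 for Ifnar2 (adjusted p = 0.231, 0.127 to 0.69 over the alternatives) and -0.73 ± 0.25 for Ifnlr1 (adjusted p = 0.183, 0.111 to 0.593 over the alternatives).

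Among further STAT and IRF factors, Irf1, Irf2, Irf5 and Irf8 rose with time. Irf1, an activator of genes that respond to interferon gamma, measured 15.5, 11.4 and 10.5 CPM on day 5, 26.1, 20.7 and 19.3 at 0 Gy and 33.1, 33.1 and 29.3 at 7 Gy on day 7, and 49.5, 30.3 and 29.1 at 0 Gy and 49.1, 30.8 and 37.1 at 7 Gy on day 11. Irf1 was higher on day 11 than on day 5 at 0 Gy without overlap. With time, log2 changes were Irf1 (1.69 ± 0.23), Irf2 (0.70 ± 0.14), Irf5 (1.02 ± 0.24) and Irf8 (2.78 ± 0.71), with adjusted p at most 0.00775. Stat3, which carries signals of other cytokines, fell at 7 Gy on day 7 (log2 change -0.38 ± 0.08, adjusted p = 0.013). Stat3 lost its day 7 call without the 0 Gy library of mTG14 or the 7 Gy library of mTG11 (leave-out range 0.0156 to 0.059). Irf3, the factor that acts downstream of the RNA sensors before any interferon is made, had a log2 change of -0.29 ± 0.10 at 7 Gy on day 11 (adjusted p = 0.192).

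The 3 transcription factors among the 45 all rose with time and all rose at 7 Gy on day 7, and Stat2 rose at 7 Gy on day 11. Stat2 is part of the factor that interferons activate. Stat2 measured 2.07, 6.46 and 5.42 CPM on day 5, 10.4, 9.28 and 4.89 on day 7 and 15.0, 7.51 and 11.5 on day 11 at 0 Gy. Stat2 on day 7 measured 16.4, 7.19 and 13.5 CPM at 2 Gy, 26.2, 18.2 and 13.8 at 4 Gy and 60.7, 14.6 and 37.8 at 7 Gy. Stat2 on day 11 measured 26.5, 13.7 and 27.4 CPM at 2 Gy, 34.7, 21.0 and 23.5 at 4 Gy and 39.2, 33.2 and 31.4 at 7 Gy. Stat2 at 7 Gy was above every 0 Gy library of its day, while at 2 Gy the groups overlapped on both days. Stat2 rose with time (log2 change 1.44 ± 0.38, adjusted p = 0.00951), at 7 Gy on day 7 (2.21 ± 0.46, adjusted p = 0.00969) and at 7 Gy on day 11 (1.56 ± 0.28, adjusted p = 0.0142). Stat2 lost its day 7 call without the 0 Gy library of mTG14 (leave-out range 0.000998 to 0.0522). Stat2 lost its day 11 call without the 0 Gy libraries of mTG12 or mTG14 or the 7 Gy library of mTG11 (leave-out range 0.0332 to 0.0723).

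Irf9 gives the STAT complex its grip on DNA. Irf9 measured 5.86, 2.66 and 5.42 CPM on day 5, 26.2, 11.1 and 11.6 on day 7 and 43.1, 16.6 and 33.0 on day 11 at 0 Gy. Irf9 on day 7 measured 36.0, 14.6 and 32.1 CPM at 2 Gy, 44.0, 32.7 and 33.7 at 4 Gy and 76.4, 40.6 and 63.2 at 7 Gy. Irf9 on day 11 measured 71.2, 35.7 and 64.0 CPM at 2 Gy, 67.0, 46.1 and 59.6 at 4 Gy and 72.4, 61.4 and 62.3 at 7 Gy. Irf9 at 0 Gy was higher on day 7 than on day 5 without overlap, at 7 Gy it was above every 0 Gy library of its day, and the order of the cultures was the same in all 8 groups after day 5, with mTG11 highest and mTG12 lowest. Irf9 rose with time (log2 change 2.85 ± 0.45, adjusted p = 0.000287) and at 7 Gy on day 7 (1.89 ± 0.35, adjusted p = 0.00474). Irf9 did not pass the test at 7 Gy on day 11 (log2 change 1.04 ± 0.28, adjusted p = 0.0934, 0.000668 with the culture block, 0.000668 to 0.437 over the alternatives).

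Irf7 drives the genes of type I interferon and is itself switched on by interferon. Irf7 measured 0.689, 1.90 and 0.855 CPM on day 5, 16.4, 7.42 and 6.43 on day 7 and 94.3, 31.1 and 76.7 on day 11 at 0 Gy. Irf7 on day 7 measured 44.7, 12.2 and 27.8 CPM at 2 Gy, 66.5, 22.4 and 28.8 at 4 Gy and 101, 22.6 and 59.1 at 7 Gy. Irf7 on day 11 measured 173, 79.1 and 138 CPM at 2 Gy, 181, 100.1 and 152 at 4 Gy and 209.8, 122 and 169 at 7 Gy. Irf7 at 0 Gy did not overlap between any of the 3 days, and the 7 Gy libraries of day 11 were above those of day 7 as well as above the 0 Gy libraries of day 11. Irf7 rose with time (log2 change 6.03 ± 0.60, adjusted p = 7.85e-06) and at 7 Gy on day 7 (2.60 ± 0.60, adjusted p = 0.018). Irf7 did not pass the test at 7 Gy on day 11 (log2 change 1.27 ± 0.36, adjusted p = 0.107, 1.44e-05 with the culture block, 1.44e-05 to 0.47 over the alternatives). Irf7 lost its day 7 call without the 0 Gy libraries of mTG12 or mTG14 or the 7 Gy library of mTG11 (leave-out range 0.0061 to 0.0826).

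All 5 nucleic acid sensors rose with time, 3 rose at 7 Gy on day 7 and 1, Dhx58, at 7 Gy on day 11. The block called 4 at 7 Gy on each day. Ifih1 encodes the sensor of long double-stranded RNA. Ifih1 measured 4.48, 2.28 and 3.42 CPM on day 5, 17.0, 10.1 and 10.0 on day 7 and 29.3, 24.7 and 25.8 on day 11 at 0 Gy. Ifih1 on day 7 measured 23.3, 6.97 and 22.6 CPM at 2 Gy, 23.3, 17.4 and 18.8 at 4 Gy and 51.6, 18.8 and 41.5 at 7 Gy. Ifih1 on day 11 measured 43.2, 23.7 and 43.8 CPM at 2 Gy, 49.2, 25.9 and 41.7 at 4 Gy and 56.3, 37.0 and 48.5 at 7 Gy. Ifih1 at 0 Gy did not overlap between the days, at 7 Gy it was above every 0 Gy library of its day, and mTG12 at 2 Gy was below its own 0 Gy value on both days. Ifih1 rose with time (log2 change 3.09 ± 0.26, adjusted p = 2.04e-06) and at 7 Gy on day 7 (1.60 ± 0.40, adjusted p = 0.0276). Ifih1 did not pass the test at 7 Gy on day 11 (log2 change 0.79 ± 0.25, adjusted p = 0.143, 0.00163 with the culture block, 0.00163 to 0.534 over the alternatives). Ifih1 lost its day 7 call without the 0 Gy libraries of mTG12 or mTG14 or the 7 Gy libraries of mTG11 or mTG14 (leave-out range 0.00665 to 0.116).

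Eif2ak2 encodes the kinase that stops translation when it binds double-stranded RNA. Eif2ak2 measured 93.6, 104 and 96.8 CPM on day 5, 101, 102 and 101 on day 7 and 124, 119.98 and 111 on day 11 at 0 Gy. Eif2ak2 on day 7 measured 103, 93.9 and 113 CPM at 2 Gy, 122, 113 and 104 at 4 Gy and 137, 120.04 and 111 at 7 Gy. Eif2ak2 on day 11 measured 138, 127 and 129 CPM at 2 Gy, 128, 136 and 138 at 4 Gy and 153, 139 and 134 at 7 Gy. Eif2ak2 was detected at a like level in all libraries, and its small rise from day 7 to day 11 and its 7 Gy values left no overlap with the 0 Gy libraries. Eif2ak2 rose with time (log2 change 0.42 ± 0.08, adjusted p = 0.00123). Eif2ak2 did not pass the test at 7 Gy on day 7 (log2 change 0.27 ± 0.10, adjusted p = 0.126) or at 7 Gy on day 11 (log2 change 0.23 ± 0.09, adjusted p = 0.245).

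The OAS family makes the messenger oligoadenylate in response to double-stranded RNA. All 6 of its genes rose with time, 5 rose at 7 Gy on day 7 and 3 on day 11, and with the culture block 5 and 6 did. Oas1a measured 1.38, 0.380 and 0.713 CPM on day 5, 4.69, 1.72 and 2.96 on day 7 and 10.8, 2.95 and 7.70 on day 11 at 0 Gy. Oas1a on day 7 measured 9.89, 2.72 and 4.93 CPM at 2 Gy, 17.3, 5.19 and 4.53 at 4 Gy and 35.2, 9.25 and 17.0 at 7 Gy. Oas1a on day 11 measured 22.6, 6.27 and 15.6 CPM at 2 Gy, 31.9, 10.1 and 19.3 at 4 Gy and 39.1, 27.4 and 30.2 at 7 Gy. Oas1a at 7 Gy was above every 0 Gy library of its day, at 4 Gy it overlapped them on both days, and mTG11 was highest in all 8 groups after day 5. Oas1a rose with time (log2 change 3.31 ± 0.64, adjusted p = 0.00131), at 7 Gy on day 7 (2.70 ± 0.63, adjusted p = 0.0189) and at 7 Gy on day 11 (2.11 ± 0.47, adjusted p = 0.0427). Oas1a lost its day 7 call without the 0 Gy libraries of mTG12 or mTG14 or the 7 Gy library of mTG11 (leave-out range 0.00991 to 0.09). Oas1a lost its day 11 call whichever compared library was left out (leave-out range 0.0644 to 0.151).

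Oas2 makes the same messenger as a dimer. Oas2 measured 0, 0 and 0.285 CPM on day 5, 2.08, 0 and 1.54 on day 7 and 10.00, 2.14 and 3.85 on day 11 at 0 Gy. Oas2 on day 7 measured 3.16, 0 and 1.46 CPM at 2 Gy, 6.12, 3.39 and 4.30 at 4 Gy and 17.3, 3.60 and 7.98 at 7 Gy. Oas2 on day 11 measured 19.0, 2.23 and 7.99 CPM at 2 Gy, 36.8, 9.45 and 20.1 at 4 Gy and 57.3, 33.1 and 38.0 at 7 Gy. Oas2 was at or under the floor on day 5 in every library, had no count in mTG12 on day 7 at 0 Gy and at 2 Gy, and at 7 Gy was higher on day 11 than on day 7 without overlap. Oas2 rose with time (ratio 50.01, 95% counting interval 8.66 to 2006, adjusted p = 0.00258), at 7 Gy on day 7 (log2 change 2.96 ± 0.77, adjusted p = 0.0324) and at 7 Gy on day 11 (2.94 ± 0.61, adjusted p = 0.0289). Oas2 lost its day 7 call whichever compared library was left out except the 7 Gy library of mTG12 (leave-out range 0.016 to 0.157), and by DESeq2 (adjusted p = 0.0886). Oas2 lost its day 11 call without the 0 Gy libraries of mTG12 or mTG14 or the 7 Gy libraries of mTG11 or mTG14 (leave-out range 0.048 to 0.121).

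Oas3 is another gene of this family. Oas3 measured 0, 0 and 0 CPM on day 5, 0.521, 0 and 0.265 on day 7 and 7.16, 0.555 and 4.96 on day 11 at 0 Gy. Oas3 on day 7 measured 1.19, 0.218 and 2.56 CPM at 2 Gy, 4.99, 1.20 and 1.82 at 4 Gy and 9.78, 4.63 and 5.07 at 7 Gy. Oas3 on day 11 measured 12.5, 4.19 and 6.96 CPM at 2 Gy, 15.2, 6.76 and 10.2 at 4 Gy and 23.5, 7.57 and 12.1 at 7 Gy. Oas3 had no count on day 5 and 3 counts in all on day 7 at 0 Gy, so that every 7 Gy library of day 7 was above them, and mTG12 was lowest in all 8 groups after day 5. Oas3 rose with time (at least 13.0-fold, adjusted p = 0.00455) and at 7 Gy on day 7 (ratio 25.02, 95% counting interval 8.24 to 124, adjusted p = 0.0051). Oas3 did not pass the test at 7 Gy on day 11 (log2 change 1.72 ± 0.59, adjusted p = 0.176, 0.000894 with the culture block, 0.000894 to 0.517 over the alternatives).

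Oasl2 measured 1.03, 1.71 and 0.570 CPM on day 5, 11.7, 5.04 and 3.09 on day 7 and 60.8, 17.2 and 45.2 on day 11 at 0 Gy. Oasl2 on day 7 measured 26.7, 3.48 and 16.4 CPM at 2 Gy, 52.5, 20.6 and 11.8 at 4 Gy and 117, 18.5 and 51.2 at 7 Gy. Oasl2 on day 11 measured 155, 38.6 and 98.1 CPM at 2 Gy, 156, 51.5 and 113 at 4 Gy and 157, 89.8 and 126 at 7 Gy. Oasl2 at 0 Gy did not overlap between the days, and mTG11 at 7 Gy on day 7 was above every 0 Gy library of day 11. Oasl2 rose with time (log2 change 5.46 ± 0.67, adjusted p = 4.10e-05) and at 7 Gy on day 7 (3.24 ± 0.77, adjusted p = 0.021). Oasl2 did not pass the test at 7 Gy on day 11 (log2 change 1.56 ± 0.50, adjusted p = 0.152, 2.33e-05 with the culture block, 2.33e-05 to 0.537 over the alternatives). Oasl2 lost its day 7 call without the 0 Gy libraries of mTG12 or mTG14 or the 7 Gy library of mTG11 (leave-out range 0.00831 to 0.0977). The values of Oas1a and of Oas1g, a close copy of it, were not whole numbers in 40.7% of the libraries with counts. Whether reads were shared between these genes was not tested, and their separate levels are uncertain.

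IFIT proteins bind viral RNA that lacks the host's cap marks. Of the 4 genes, 3 rose with time and 3 at 7 Gy on day 7, and 0 rose at 7 Gy on day 11 by edgeR (4 at an unadjusted p under 0.05, 3 by DESeq2, 4 with the culture block). Ifit1 measured 1.85, 1.44 and 1.78 CPM on day 5, 21.7, 10.7 and 11.0 on day 7 and 153, 30.6 and 81.7 on day 11 at 0 Gy. Ifit1 on day 7 measured 46.9, 7.47 and 37.6 CPM at 2 Gy, 101, 34.3 and 38.6 at 4 Gy and 207, 36.8 and 101 at 7 Gy. Ifit1 on day 11 measured 310.3, 60.9 and 218 CPM at 2 Gy, 278, 103 and 175 at 4 Gy and 319, 142 and 228 at 7 Gy. Ifit1 on day 11 was higher at 7 Gy than at 0 Gy within each culture, and the groups overlapped since mTG11 at 0 Gy was above mTG12 at 7 Gy. Ifit1 rose with time (log2 change 5.85 ± 0.69, adjusted p = 3.06e-05) and at 7 Gy on day 7 (3.00 ± 0.67, adjusted p = 0.0153). Ifit1 did not pass the test at 7 Gy on day 11 (log2 change 1.34 ± 0.57, adjusted p = 0.285, 0.000141 with the culture block, 0.000141 to 0.671 over the alternatives). Ifit1 lost its day 7 call without the 0 Gy libraries of mTG12 or mTG14 or the 7 Gy library of mTG11 (leave-out range 0.0056 to 0.0712).

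Ifit3 steadies the binding of Ifit1 to RNA. Ifit3 measured 0, 0 and 0.285 CPM on day 5, 4.30, 4.51 and 3.35 on day 7 and 29.4, 10.2 and 14.2 on day 11 at 0 Gy. Ifit3 on day 7 measured 13.8, 3.27 and 6.21 CPM at 2 Gy, 31.8, 11.2 and 12.2 at 4 Gy and 79.3, 15.0 and 29.4 at 7 Gy. Ifit3 on day 11 measured 96.6, 21.9 and 68.6 CPM at 2 Gy, 97.4, 40.5 and 64.5 at 4 Gy and 129, 49.3 and 88.8 at 7 Gy. Ifit3 had 1 count on day 5, did not overlap between the 0 Gy days, and in mTG12 was lower at 2 Gy than at 0 Gy on day 7. Ifit3 rose with time (ratio 167, 95% counting interval 29.7 to 6636, adjusted p = 1.09e-05) and at 7 Gy on day 7 (log2 change 3.36 ± 0.66, adjusted p = 0.0072). Ifit3 did not pass the test at 7 Gy on day 11 (log2 change 2.26 ± 0.53, adjusted p = 0.0505, 5.00e-07 with the culture block, 5.00e-07 to 0.43 over the alternatives). Ifit3 gained a day 11 call without the 7 Gy library of mTG12 (leave-out range 0.0427 to 0.174).

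Ifit3b is a close copy of Ifit3 on the same chromosome. Ifit3b measured 0, 0 and 0 CPM on day 5, 3.26, 2.39 and 2.83 on day 7 and 28.7, 8.31 and 16.4 on day 11 at 0 Gy. Ifit3b on day 7 measured 10.3, 2.18 and 11.0 CPM at 2 Gy, 20.7, 8.58 and 7.92 at 4 Gy and 69.9, 13.5 and 25.9 at 7 Gy. Ifit3b on day 11 measured 87.6, 23.0 and 49.1 CPM at 2 Gy, 80.4, 34.9 and 47.3 at 4 Gy and 112, 46.6 and 69.9 at 7 Gy. Ifit3b had no count on day 5, the 3 cultures were close together on day 7 at 0 Gy, and mTG11 stood apart at 7 Gy on both days. Ifit3b rose with time (at least 55.0-fold, adjusted p = 5.25e-05) and at 7 Gy on day 7 (log2 change 3.70 ± 0.68, adjusted p = 0.005). Ifit3b did not pass the test at 7 Gy on day 11 (log2 change 2.06 ± 0.51, adjusted p = 0.0624, 2.94e-07 with the culture block, 2.94e-07 to 0.429 over the alternatives). Values of Ifit3 and Ifit3b were not whole numbers in 44.0% and 45.8% of the libraries with counts.

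In the Isg15 system, a small modifier related to ubiquitin is attached to other proteins by Herc6 and removed by Usp18. All 3 genes rose with time and all 3 at 7 Gy on day 7, and Herc6 rose at 7 Gy on day 11. Isg15 measured 4.14, 2.28 and 0.855 CPM on day 5, 18.6, 8.75 and 10.7 on day 7 and 83.0, 17.3 and 47.3 on day 11 at 0 Gy. Isg15 on day 7 measured 47.2, 8.603 and 40.5 CPM at 2 Gy, 106, 44.3 and 40.5 at 4 Gy and 293, 46.2 and 109.9 at 7 Gy. Isg15 on day 11 measured 242, 46.9 and 145 CPM at 2 Gy, 221, 87.3 and 165 at 4 Gy and 297, 159 and 235 at 7 Gy. Isg15 at 4 and 7 Gy was above every 0 Gy library of its day, mTG11 was the highest culture in all 8 groups after day 5, and mTG11 at 7 Gy stood at a like level on both days. Isg15 rose with time (log2 change 4.53 ± 0.65, adjusted p = 0.000139) and at 7 Gy on day 7 (3.56 ± 0.69, adjusted p = 0.00687). Isg15 did not pass the test at 7 Gy on day 11 (log2 change 2.18 ± 0.55, adjusted p = 0.0705, 4.84e-06 with the culture block, 4.84e-06 to 0.47 over the alternatives).

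Usp18 also blocks the type I receptor from inside the cell and so limits the response. Usp18 measured 1.72, 0.760 and 0.285 CPM on day 5, 10.4, 3.98 and 6.69 on day 7 and 30.5, 10.2 and 15.9 on day 11 at 0 Gy. Usp18 on day 7 measured 17.0, 8.93 and 11.7 CPM at 2 Gy, 36.1, 16.6 and 11.8 at 4 Gy and 82.2, 18.5 and 39.9 at 7 Gy. Usp18 on day 11 measured 55.9, 23.4 and 45.5 CPM at 2 Gy, 45.4, 29.9 and 43.3 at 4 Gy and 73.9, 41.9 and 52.7 at 7 Gy. Usp18 at 7 Gy was above every 0 Gy library of its day, and in mTG11 the 7 Gy value was lower on day 11 than on day 7. Usp18 rose with time (log2 change 4.51 ± 0.62, adjusted p = 9.88e-05) and at 7 Gy on day 7 (2.74 ± 0.54, adjusted p = 0.00758). Usp18 did not pass the test at 7 Gy on day 11 (log2 change 1.53 ± 0.36, adjusted p = 0.0522, 1.83e-05 with the culture block, 1.83e-05 to 0.424 over the alternatives). Usp18 gained a day 11 call without the 0 Gy library of mTG11 (leave-out range 0.0392 to 0.17).

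**Figure D2:**
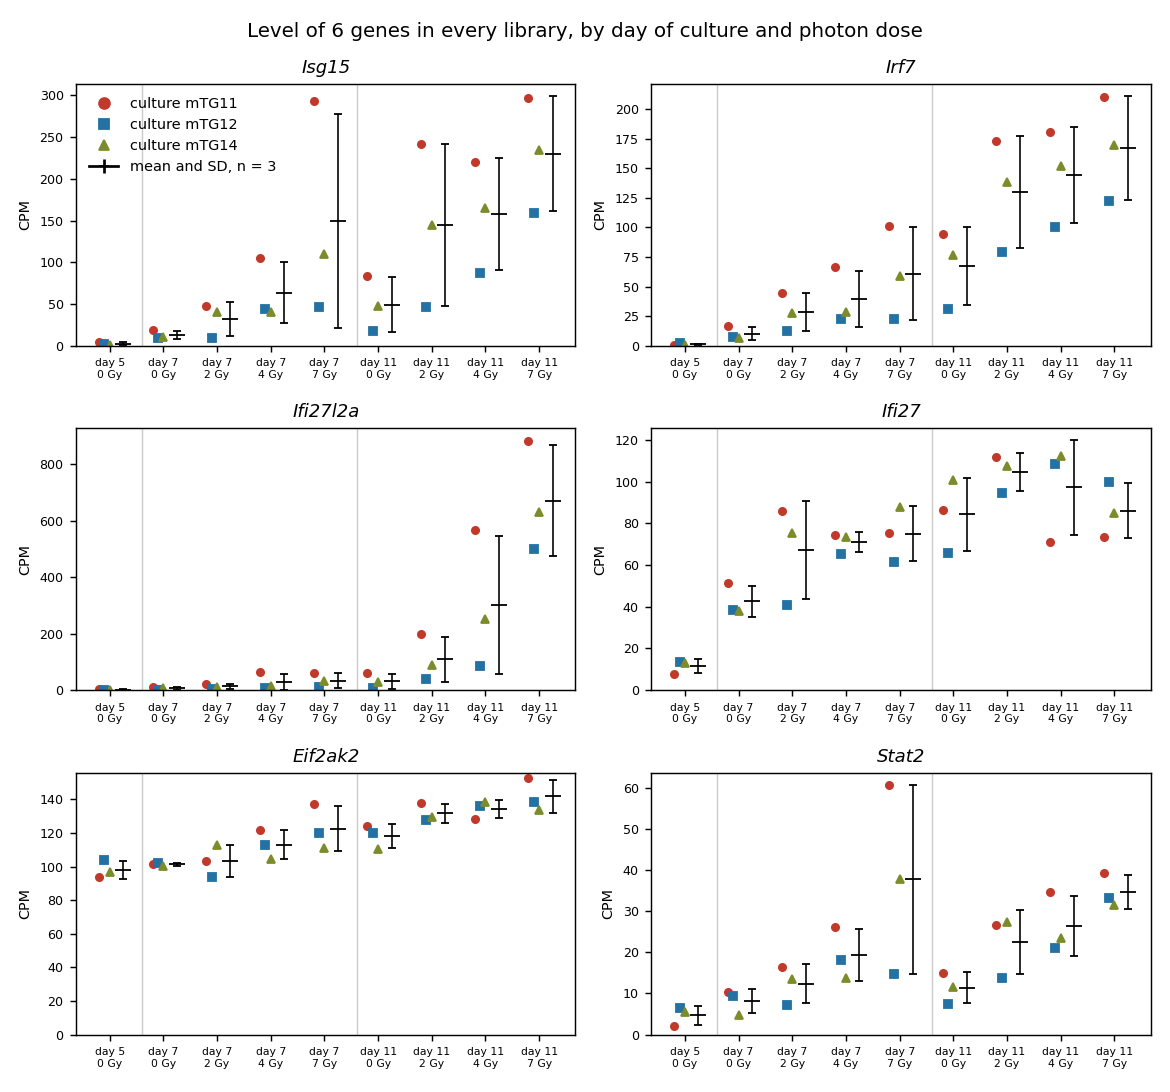
CPM of Isg15, Irf7, Ifi27l2a, Ifi27, Eif2ak2 and Stat2 (vertical axes, linear from 0) in the 9 groups of day and dose (horizontal axes), with 1 point for each library by culture and a bar for the mean and SD of 3 libraries. Ifi27l2a stays at or under 63.0 CPM through day 7 and reaches 884, 499 and 631 CPM at 7 Gy on day 11, while Eif2ak2 lies between 93.6 and 153 CPM in all 27 libraries.

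Of the 9 restriction factors, which block steps of viral growth, 8 rose with time, 6 at 7 Gy on day 7 and 4 at 7 Gy on day 11, and with the culture block 8, 7 and 8 did. Mx1 is a gene of the Mx family of GTPases, and whether these organoids make a working Mx1 protein was not tested. Mx1 measured 0.345, 1.90 and 0 CPM on day 5, 7.30, 3.18 and 5.40 on day 7 and 19.5, 4.56 and 9.90 on day 11 at 0 Gy. Mx1 on day 7 measured 12.9, 2.83 and 6.21 CPM at 2 Gy, 14.6, 7.82 and 7.92 at 4 Gy and 31.3, 7.71 and 18.6 at 7 Gy. Mx1 on day 11 measured 17.2, 5.85 and 9.85 CPM at 2 Gy, 21.9, 10.1 and 13.0 at 4 Gy and 28.8, 13.0 and 16.4 at 7 Gy. Mx1 on day 11 was lower at 2 Gy than at 0 Gy in mTG11 and mTG14, and the 7 Gy libraries of that day, each above its own 0 Gy value, overlapped the 0 Gy libraries. Mx1 rose with time (log2 change 4.17 ± 0.77, adjusted p = 0.000974) and at 7 Gy on day 7 (1.86 ± 0.52, adjusted p = 0.0454). Mx1 did not pass the test at 7 Gy on day 11 (log2 change 0.74 ± 0.47, adjusted p = 0.51, 0.0105 with the culture block, 0.0105 to 0.871 over the alternatives). Mx1 lost its day 7 call whichever compared library was left out except the 7 Gy library of mTG12 (leave-out range 0.0111 to 0.201).

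Rsad2 encodes viperin, an enzyme that makes a chain-ending nucleotide. Rsad2 measured 0, 0 and 0.285 CPM on day 5, 2.61, 0.883 and 0.772 on day 7 and 6.43, 1.61 and 2.75 on day 11 at 0 Gy. Rsad2 on day 7 measured 5.93, 2.83 and 3.29 CPM at 2 Gy, 16.0, 9.38 and 6.57 at 4 Gy and 52.2, 8.48 and 15.2 at 7 Gy. Rsad2 on day 11 measured 18.1, 4.18 and 16.2 CPM at 2 Gy, 17.0, 9.45 and 7.45 at 4 Gy and 34.1, 13.2 and 25.3 at 7 Gy. Rsad2 had 1 count on day 5, every exposed group of day 7 was above the 0 Gy libraries of that day, and mTG11 was the highest culture in all 8 groups after day 5. Rsad2 rose with time (ratio 33.6, 95% counting interval 5.72 to 1358, adjusted p = 0.00206), at 7 Gy on day 7 (log2 change 4.16 ± 0.74, adjusted p = 0.00381) and at 7 Gy on day 11 (2.68 ± 0.56, adjusted p = 0.0287). Rsad2 lost its day 11 call without the 0 Gy libraries of mTG12 or mTG14 or the 7 Gy libraries of mTG11 or mTG14 (leave-out range 0.0268 to 0.121).

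Bst2 encodes tetherin, which holds budding virions on the cell surface. Bst2 measured 5.17, 4.82 and 3.42 CPM on day 5, 11.5, 7.95 and 3.09 on day 7 and 39.4, 15.8 and 33.9 on day 11 at 0 Gy. Bst2 on day 7 measured 24.1, 7.62 and 12.1 CPM at 2 Gy, 46.4, 22.4 and 15.9 at 4 Gy and 121, 24.8 and 47.2 at 7 Gy. Bst2 on day 11 measured 92.5, 33.0 and 48.9 CPM at 2 Gy, 106, 53.5 and 66.5 at 4 Gy and 196, 90.2 and 105 at 7 Gy. Bst2 on day 5 was in the range of the lower day 7 libraries at 0 Gy, and at 4 and 7 Gy it was above every 0 Gy library of its day. Bst2 rose with time (log2 change 2.88 ± 0.43, adjusted p = 0.000214), at 7 Gy on day 7 (3.10 ± 0.62, adjusted p = 0.00782) and at 7 Gy on day 11 (2.10 ± 0.42, adjusted p = 0.0257). Bst2 lost its day 11 call without the 0 Gy libraries of mTG11, mTG12 or mTG14 or the 7 Gy library of mTG11 (leave-out range 0.0306 to 0.101).

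Trim30a is a ring-finger protein that restrains signalling by Toll-like receptors. Trim30a measured 0, 0.125 and 0.285 CPM on day 5, 0.391, 0.398 and 0.257 on day 7 and 6.49, 0.804 and 1.92 on day 11 at 0 Gy. Trim30a on day 7 measured 1.58, 0.725 and 0.730 CPM at 2 Gy, 2.24, 2.16 and 1.92 at 4 Gy and 9.78, 2.65 and 5.99 at 7 Gy. Trim30a on day 11 measured 17.7, 4.46 and 12.0 CPM at 2 Gy, 26.8, 7.54 and 15.2 at 4 Gy and 57.0, 13.8 and 28.4 at 7 Gy. Trim30a was under the floor in every 0 Gy library of days 5 and 7, and on day 7 the 7 Gy libraries were above every 4 Gy library. Trim30a rose with time (ratio 28.9, 95% counting interval 4.88 to 1173, adjusted p = 0.00467), at 7 Gy on day 7 (log2 change 3.71 ± 0.58, adjusted p = 0.00176) and at 7 Gy on day 11 (3.36 ± 0.71, adjusted p = 0.03). Trim30a lost its day 11 call whichever compared library was left out except the 7 Gy library of mTG12 (leave-out range 0.0248 to 0.122).

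Of the ADP-ribosyltransferases Parp9 and Parp14 and the ubiquitin ligase Dtx3l, which pairs with Parp9, 3 of 3 rose with time, and Parp14 rose at 7 Gy on both days. All 3 rose at 7 Gy on both days with the culture block. Parp14 measured 2.07, 3.42 and 2.28 CPM on day 5, 9.90, 7.16 and 4.12 on day 7 and 19.3, 13.7 and 22.3 on day 11 at 0 Gy. Parp14 on day 7 measured 14.6, 5.88 and 16.8 CPM at 2 Gy, 25.4, 10.8 and 13.8 at 4 Gy and 28.1, 12.6 and 28.2 at 7 Gy. Parp14 on day 11 measured 46.5, 18.7 and 38.6 CPM at 2 Gy, 45.9, 26.8 and 28.4 at 4 Gy and 61.2, 34.9 and 52.2 at 7 Gy. Parp14 at 0 Gy did not overlap between the days, at 7 Gy mTG11 and mTG14 were level on day 7 with mTG12 lower, and the 7 Gy libraries of day 11 were above those of day 7. Parp14 rose with time (log2 change 2.98 ± 0.34, adjusted p = 2.35e-05), at 7 Gy on day 7 (1.70 ± 0.44, adjusted p = 0.0309) and at 7 Gy on day 11 (1.39 ± 0.32, adjusted p = 0.0493). Parp14 lost its day 7 call without the 0 Gy libraries of mTG12 or mTG14 or the 7 Gy libraries of mTG11 or mTG14 (leave-out range 0.0136 to 0.123). Parp14 lost its day 11 call whichever compared library was left out except the 7 Gy library of mTG12 (leave-out range 0.0383 to 0.174).

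Guanylate-binding proteins attack the membranes around intracellular microbes and respond to interferon gamma as well. Both genes rose with time and at 7 Gy on day 7, and Gbp3 rose at 7 Gy on day 11. Gbp2 measured 0.689, 0.380 and 0.570 CPM on day 5, 2.34, 3.45 and 0.772 on day 7 and 5.24, 5.09 and 3.57 on day 11 at 0 Gy. Gbp2 on day 7 measured 7.12, 2.40 and 5.11 CPM at 2 Gy, 11.7, 5.19 and 6.11 at 4 Gy and 22.6, 3.60 and 10.6 at 7 Gy. Gbp2 on day 11 measured 8.73, 4.18 and 8.52 CPM at 2 Gy, 10.00, 5.40 and 11.0 at 4 Gy and 12.6, 8.10 and 12.6 at 7 Gy. Gbp2 at 0 Gy did not overlap between the days, and mTG12 at 2 Gy was below its own 0 Gy value on both days. Gbp2 rose with time (log2 change 3.13 ± 0.55, adjusted p = 0.000712) and at 7 Gy on day 7 (2.48 ± 0.64, adjusted p = 0.0319). Gbp2 did not pass the test at 7 Gy on day 11 (log2 change 1.21 ± 0.32, adjusted p = 0.0846, 0.00538 with the culture block, 0.00538 to 0.498 over the alternatives). Gbp2 lost its day 7 call without the 0 Gy libraries of mTG11 or mTG14 or the 7 Gy libraries of mTG11 or mTG14 (leave-out range 0.00616 to 0.157).

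Gbp3 measured 0, 0 and 0.285 CPM on day 5, 1.04, 0.530 and 0.772 on day 7 and 4.52, 1.61 and 1.37 on day 11 at 0 Gy. Gbp3 on day 7 measured 1.98, 1.09 and 3.65 CPM at 2 Gy, 6.41, 2.00 and 3.62 at 4 Gy and 22.3, 5.14 and 10.9 at 7 Gy. Gbp3 on day 11 measured 12.4, 3.76 and 6.26 CPM at 2 Gy, 13.1, 5.40 and 8.00 at 4 Gy and 22.8, 9.18 and 12.0 at 7 Gy. Gbp3 had 1 count on day 5, and on day 7 every exposed library was above every 0 Gy library. Gbp3 rose with time (ratio 23.4, 95% counting interval 3.90 to 956, adjusted p = 0.00248), at 7 Gy on day 7 (log2 change 3.98 ± 0.66, adjusted p = 0.00251) and at 7 Gy on day 11 (2.48 ± 0.54, adjusted p = 0.0352). Gbp3 lost its day 11 call whichever compared library was left out except the 7 Gy library of mTG12 (leave-out range 0.0347 to 0.141).

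The small membrane proteins of the Ifi27 family and Xaf1, an activator of cell death, form a group of 3, in which all 3 rose with time, 2 rose at 7 Gy on day 7 (Ifi27 and Xaf1) and 1 at 7 Gy on day 11 (Ifi27l2a). Ifi27l2a measured 2.76, 0.760 and 0.570 CPM on day 5, 12.2, 2.12 and 7.20 on day 7 and 59.3, 6.43 and 28.9 on day 11 at 0 Gy. Ifi27l2a on day 7 measured 23.3, 3.70 and 12.8 CPM at 2 Gy, 63.0, 8.38 and 15.2 at 4 Gy and 61.4, 9.51 and 31.4 at 7 Gy. Ifi27l2a on day 11 measured 198, 40.4 and 90.3 CPM at 2 Gy, 568, 85.3 and 253 at 4 Gy and 884, 499 and 631 at 7 Gy. Ifi27l2a was higher at 7 Gy than at 0 Gy within each culture on day 7 with overlapping groups, and on day 11 the 7 Gy libraries were above all 0 Gy libraries and above the 7 Gy libraries of day 7. Ifi27l2a rose with time (log2 change 4.69 ± 0.92, adjusted p = 0.00142) and at 7 Gy on day 11 (4.36 ± 0.77, adjusted p = 0.0142). Ifi27l2a did not pass the test at 7 Gy on day 7 (log2 change 2.25 ± 0.84, adjusted p = 0.132, 5.91e-06 with the culture block, 5.91e-06 to 0.408 over the alternatives). Ifi27l2a lost its day 11 call without the 0 Gy libraries of mTG12 or mTG14 (leave-out range 0.0274 to 0.0747). Within the cultures the 7 Gy level of Ifi27l2a on day 11 was 14.9, 77.5 and 21.9 times the 0 Gy level. The difference of its 7 Gy response between the days was 2.14 ± 1.30 on the log2 scale (adjusted p = 0.506, and 0.00432 with the culture block).

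Ifi27, the neighbour of Ifi27l2a on the genome, measured 7.93, 13.7 and 13.1 CPM on day 5, 51.3, 38.4 and 38.1 at 0 Gy and 75.4, 61.7 and 88.1 at 7 Gy on day 7, and 86.5, 65.7 and 101 at 0 Gy and 73.6, 100.0 and 84.9 at 7 Gy on day 11. Ifi27 did not overlap between the 0 Gy days, at 7 Gy it did not overlap the 0 Gy libraries on day 7, and on day 11 it overlapped them, with mTG11 and mTG14 lower at 7 Gy than at 0 Gy. Ifi27 rose with time (log2 change 3.01 ± 0.22, adjusted p = 6.50e-07) and at 7 Gy on day 7 (0.81 ± 0.22, adjusted p = 0.0408). Ifi27 did not pass the test at 7 Gy on day 11 (log2 change -0.01 ± 0.18, adjusted p = 0.989). Ifi27 lost its day 7 call whichever compared library was left out except the 7 Gy library of mTG12 (leave-out range 0.0326 to 0.136). Ifi27 and Dhx58 were singled out after their values had been seen.

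Of the 7 remaining genes, 7 rose with time, 5 at 7 Gy on day 7 and 2, Apol9a and Apol9b, at 7 Gy on day 11, and with the culture block 7, 6 and 7 did. Apol9a and Apol9b are a pair of apolipoprotein L genes that bind lipids. Apol9a measured 0, 0 and 0 CPM on day 5, 0.651, 0.663 and 0.772 on day 7 and 6.55, 1.21 and 3.30 on day 11 at 0 Gy. Apol9a on day 7 measured 5.34, 0.871 and 1.28 CPM at 2 Gy, 10.3, 4.29 and 4.19 at 4 Gy and 24.2, 2.95 and 5.85 at 7 Gy. Apol9a on day 11 measured 23.6, 3.20 and 21.6 CPM at 2 Gy, 38.1, 8.77 and 28.8 at 4 Gy and 58.1, 25.9 and 36.7 at 7 Gy. Apol9a had no count on day 5 and few on day 7 at 0 Gy, and the 7 Gy libraries were above all 0 Gy libraries on both days and higher on day 11 than on day 7. Apol9a rose with time (at least 11.5-fold, adjusted p = 0.0017), at 7 Gy on day 7 (log2 change 4.12 ± 0.93, adjusted p = 0.0161) and at 7 Gy on day 11 (3.38 ± 0.69, adjusted p = 0.0266). Apol9a lost its day 7 call without the 0 Gy libraries of mTG11, mTG12 or mTG14 or the 7 Gy library of mTG11 (leave-out range 0.00613 to 0.0683). Apol9a lost its day 11 call whichever compared library was left out except the 7 Gy library of mTG12 (leave-out range 0.0347 to 0.11).

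Apol9b measured 0, 0 and 0.285 CPM on day 5, 1.43, 1.72 and 1.80 on day 7 and 7.74, 2.28 and 3.44 on day 11 at 0 Gy. Apol9b on day 7 measured 3.95, 2.40 and 3.47 CPM at 2 Gy, 18.9, 8.38 and 5.21 at 4 Gy and 33.0, 7.07 and 20.0 at 7 Gy. Apol9b on day 11 measured 24.9, 5.71 and 26.0 CPM at 2 Gy, 44.3, 17.2 and 31.2 at 4 Gy and 80.2, 32.8 and 52.8 at 7 Gy. Apol9b had 1 count on day 5, the cultures were close on day 7 at 0 Gy, and every exposed library of day 7 was above them. Apol9b rose with time (ratio 40.6, 95% counting interval 6.98 to 1636, adjusted p = 0.000459), at 7 Gy on day 7 (log2 change 3.58 ± 0.62, adjusted p = 0.00313) and at 7 Gy on day 11 (3.60 ± 0.57, adjusted p = 0.0111). Apol9b lost its day 11 call without the 0 Gy libraries of mTG12 or mTG14 (leave-out range 0.0116 to 0.0571). The values of Apol9a and Apol9b were not whole numbers in 66.7% and 52.0% of the libraries with counts. Whether reads were shared by the pair was not tested, and each level is uncertain.

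Ifi44 encodes a cytoplasmic protein of unsettled function. Ifi44 measured 1.03, 0 and 0 CPM on day 5, 7.03, 3.45 and 3.60 on day 7 and 81.2, 24.7 and 48.7 on day 11 at 0 Gy. Ifi44 on day 7 measured 26.1, 7.62 and 21.9 CPM at 2 Gy, 51.3, 17.6 and 13.4 at 4 Gy and 113, 19.0 and 58.0 at 7 Gy. Ifi44 on day 11 measured 166, 60.2 and 133 CPM at 2 Gy, 193, 70.0 and 126 at 4 Gy and 212, 108 and 167 at 7 Gy. Ifi44 had 3 counts on day 5, all in mTG11, did not overlap between the 0 Gy days, and mTG11 was highest in all 8 groups after day 5. Ifi44 rose with time (ratio 159, 95% counting interval 54.1 to 773, adjusted p = 8.47e-06) and at 7 Gy on day 7 (log2 change 3.75 ± 0.71, adjusted p = 0.00598). Ifi44 did not pass the test at 7 Gy on day 11 (log2 change 1.62 ± 0.45, adjusted p = 0.1, 6.06e-07 with the culture block, 6.06e-07 to 0.504 over the alternatives).

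Lgals3bp is a secreted glycoprotein that binds galectins. Lgals3bp measured 2.41, 1.90 and 1.43 CPM on day 5, 15.6, 6.36 and 4.37 on day 7 and 86.7, 42.9 and 48.1 on day 11 at 0 Gy. Lgals3bp on day 7 measured 55.8, 7.41 and 27.02 CPM at 2 Gy, 65.6, 33.9 and 24.9 at 4 Gy and 124, 32.6 and 61.7 at 7 Gy. Lgals3bp on day 11 measured 153, 56.0 and 81.8 CPM at 2 Gy, 159, 56.2 and 107 at 4 Gy and 215, 126 and 147 at 7 Gy. Lgals3bp at 0 Gy did not overlap between the days, and its 7 Gy libraries of day 11 were above those of day 7. Lgals3bp rose with time (log2 change 5.10 ± 0.48, adjusted p = 5.14e-06) and at 7 Gy on day 7 (3.05 ± 0.67, adjusted p = 0.0135). Lgals3bp did not pass the test at 7 Gy on day 11 (log2 change 1.42 ± 0.40, adjusted p = 0.104, 5.82e-06 with the culture block, 5.82e-06 to 0.5 over the alternatives). Lgals3bp lost its day 7 call without the 0 Gy libraries of mTG12 or mTG14 or the 7 Gy library of mTG11 (leave-out range 0.00853 to 0.066).

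**Figure D3:**
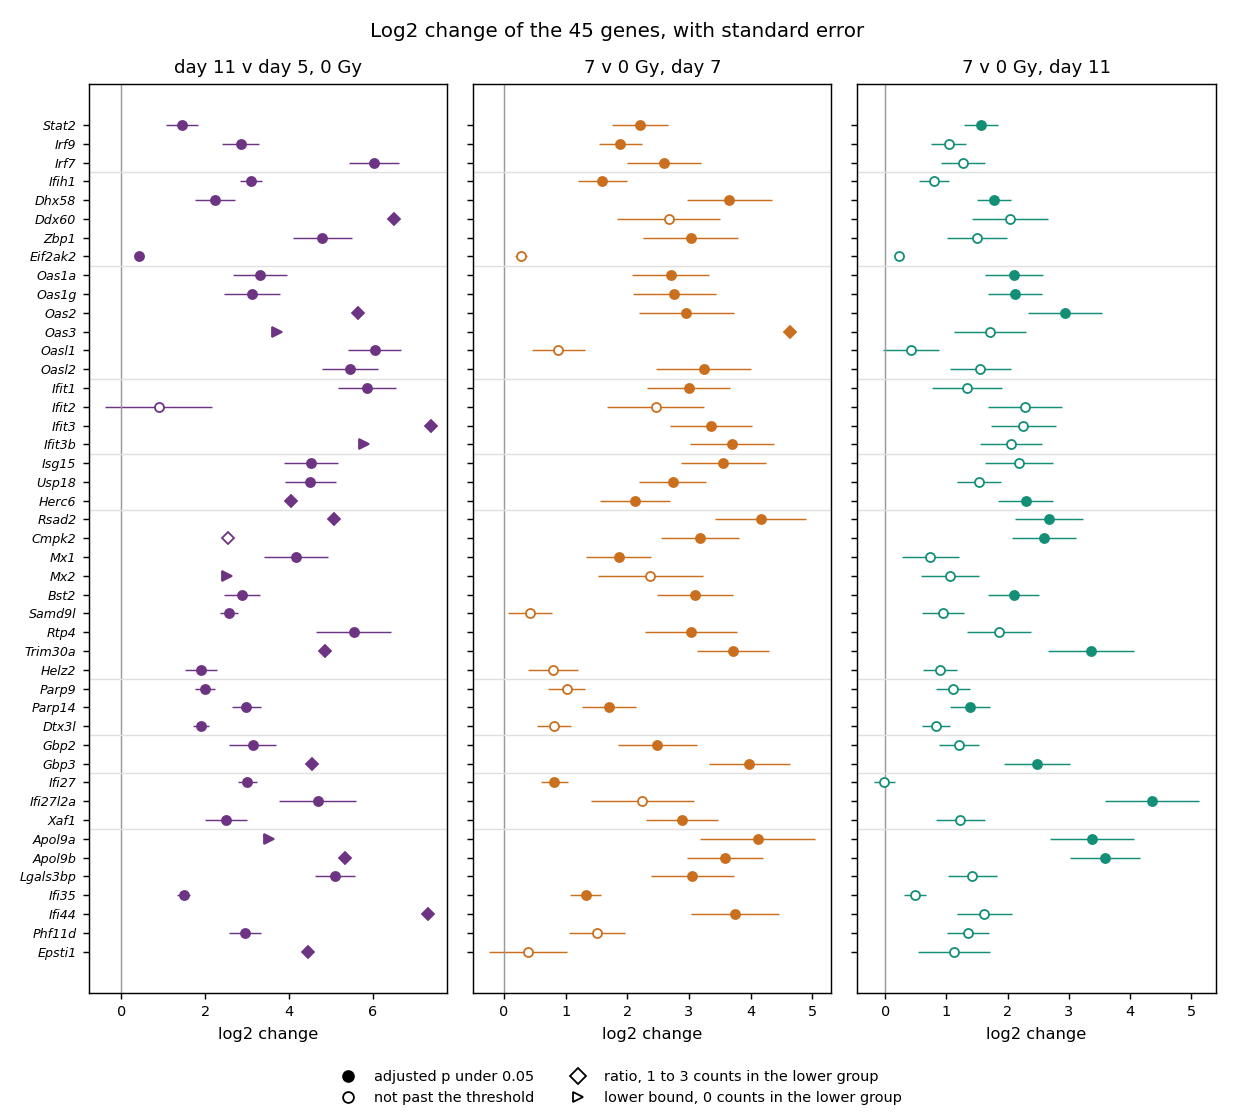
Log2 change of each of the 45 genes (vertical axis, ordered by role) from day 5 to day 11 at 0 Gy, from 0 to 7 Gy on day 7 and from 0 to 7 Gy on day 11 (horizontal axes, log2 scale), as the fitted value with its standard error, or as a ratio of counts or a lower bound where the lower group had 1 to 3 counts or none. Filled symbols mark the 43, 33 and 15 genes with an adjusted p under 0.05, and nearly all symbols lie to the right of 0 with Ifi27 at -0.01 on day 11.

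Sorted by these 3 comparisons, 13 genes rose in all of them (Stat2, Dhx58, Oas1a, Oas1g, Oas2, Herc6, Rsad2, Bst2, Trim30a, Parp14, Gbp3, Apol9a and Apol9b), 19 rose with time and at 7 Gy on day 7 alone, and Ifi27l2a rose with time and at 7 Gy on day 11 alone. With time alone rose 10 genes (Ddx60, Eif2ak2, Oasl1, Mx2, Samd9l, Helz2, Parp9, Dtx3l, Phf11d and Epsti1). Cmpk2 was called at 7 Gy on both days and not with time, and Ifit2 passed none of the 3 tests. Cmpk2 had 2 counts on day 5 and 15 on day 11 at 0 Gy (ratio 5.86, counting interval 1.36 to 52.8). At so few counts a missed time call does not show that Cmpk2 kept its level. Cmpk2 gained a time call without the day 5 library of mTG12 (leave-out range 0.0299 to 0.227). Cmpk2 lost its day 11 call without the 0 Gy library of any culture or the 7 Gy library of mTG11. The leave-out range was 0.0371 to 0.109. With the culture block 36 genes rose in all 3 comparisons and Eif2ak2 rose with time alone. Mx2 and Ifi27 rose with time and on day 7, and Oasl1, Samd9l, Helz2 and Epsti1 with time and on day 11. Ifit2 and Cmpk2, with 4 and 2 counts on day 5, were called with the block at 7 Gy on both days and not with time. Passing on 1 day and not on the other is no difference between days, for which the interaction above is the test.

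The 3 cultures differed in these genes. A term for culture, fitted over all 27 libraries with the 9 groups, was called for 42 of the 45, where 9.41% of all genes were called, and Ifit2, Ifi27 and Eif2ak2 were the 3 not called. The term fits 1 difference between cultures over all groups. By this fitted difference all 45 were lower in mTG12 than in mTG11, and 43 had mTG14 between them. Single groups could differ from it. On day 5 the summed level was 201, 219.9 and 207 CPM, with mTG12 highest. At 7 Gy on day 11 Ifi27 was 73.6 CPM in mTG11 and 100.0 in mTG12. The median log2 difference of mTG12 from mTG11 was -1.32 and that of mTG14 from mTG11 was -0.69, against 0.00 and -0.01 over all genes. In 22 genes mTG11 was highest in all 8 groups after day 5, and in 8 genes mTG12 was lowest in all 8. Ifit1 had the largest F for culture, 82.8, with log2 differences from mTG11 of -1.84 in mTG12 and -0.77 in mTG14. Leaving out 1 library moved the count of 42 to between 40 and 42.

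Within each culture the dose step can be read without the difference between cultures. The summed level at 7 Gy was 4.37, 1.90 and 3.67 times that at 0 Gy on day 7, and 2.87, 3.63 and 2.99 times on day 11. On day 7 mTG12 had the smallest step and on day 11 the largest. From day 5 to day 11 at 0 Gy the factor was 8.15, 3.32 and 5.60, and 14.1, 5.25 and 9.51 without Eif2ak2, smallest in mTG12. At 7 Gy 39 of the 45 genes were higher than at 0 Gy in all 3 cultures on day 7 and 44 on day 11, all but Ifi27. At 2 Gy on day 7 44, 21 and 43 genes were higher in mTG11, mTG12 and mTG14 and 21 in all 3, and on day 11 39 were higher in all 3. These are counts of directions with no test.

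Markers of other cell types were read beside these genes. Of 10 leukocyte markers 5 had at least 10 counts, 2 had no count in any library, Cd3e of T cells among them, and Itgax, Cd79a and Siglech had fewer than 10. Their summed level was 5.52, 16.7 and 13.0 CPM on day 5. On day 7 it was 31.2, 18.4 and 27.9 at 0 Gy, 32.2, 22.0 and 29.6 at 2 Gy, 26.8, 26.1 and 19.9 at 4 Gy and 24.8, 36.0 and 23.9 at 7 Gy. On day 11 it was 65.5, 38.1 and 42.3 at 0 Gy, 59.5, 40.7 and 44.8 at 2 Gy, 57.9, 38.8 and 61.2 at 4 Gy and 49.3, 42.5 and 43.7 at 7 Gy. Cd68, a lysosomal protein abundant in macrophages, was the most abundant of them with a mean of 28.6 CPM and rose from day 5 to day 11 at 0 Gy (log2 change 2.99 ± 0.32, adjusted p = 1.44e-05). Cd68 measured 4.14, 8.74 and 5.99 CPM on day 5 and 59.0, 35.4 and 40.0 on day 11 and made up most of the sum on day 11. Of the other markers, Lyz2 measured 1.38, 5.51 and 5.42 CPM on day 5 and 6.19, 2.68 and 2.06 on day 11, Adgre1 0, 1.14 and 1.14 and 0, 0 and 0, and Ptprc had no count on either day at 0 Gy. The time change of Lyz2 was 0.03 ± 0.52 (adjusted p = 0.969). At 7 Gy 0 of the 3 leukocyte markers tested were called on either day by edgeR (1 higher at an unadjusted p under 0.05 on day 7 and 0 on day 11, 0 and 0 by DESeq2). The part of such cells in the levels above was not tested.

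All 7 fibroblast markers had at least 10 counts, with Col1a2 the most abundant (mean 21.7 CPM). Their summed level was 31.4, 113 and 108 CPM on day 5. On day 7 it was 21.0, 73.2 and 109 at 0 Gy, 22.5, 74.3 and 92.4 at 2 Gy, 35.3, 147.7 and 112 at 4 Gy and 46.1, 105 and 113 at 7 Gy. On day 11 it was 5.48, 38.1 and 26.9 at 0 Gy, 23.0, 106 and 99.9 at 2 Gy, 13.5, 114 and 63.5 at 4 Gy and 16.4, 75.8 and 44.9 at 7 Gy. In every group mTG11 was the lowest, while in the 45 genes it was mostly the highest. From day 5 to day 11 at 0 Gy 5 of the 7 fell, and at 7 Gy 0 were called on either day by edgeR (0 at an unadjusted p under 0.05, 0 and 0 by DESeq2), while with the culture block 1 rose on day 7 (Dcn) and 3 on day 11 (Col1a1, Col1a2 and Dcn). The culture term was called for 6 of the 7. The 5 endothelial markers summed to 0.200 to 2.01 CPM, with Pecam1 the most abundant (mean 0.380 CPM) and Cdh5 and Kdr under 10 counts. Of the 3 markers of C cells and parathyroid, Gcm2 had no count, Pth was the most abundant (mean 0.438 CPM), and the sum was at most 5.32 CPM. Whether the cell mix had a part in the culture differences was not tested.

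Of 15 further genes of nucleic acid sensing, 13 could be tested, and 3 rose and 1 fell at 7 Gy on day 7 (all genes 3.2% and 3.75%) and 2 rose at 7 Gy on day 11 (1.06%). Ddx58, the sensor of short RNA with a free triphosphate end, measured 5.52, 3.04 and 5.42 CPM on day 5, 18.2, 17.5 and 16.0 at 0 Gy and 66.4, 21.8 and 48.4 at 7 Gy on day 7, and 22.6, 21.2 and 19.2 at 0 Gy and 64.1, 34.0 and 45.9 at 7 Gy on day 11. Ddx58 at 7 Gy was above every 0 Gy library of its day. Ddx58 rose with time (log2 change 2.29 ± 0.20, adjusted p = 2.68e-06), at 7 Gy on day 7 (1.40 ± 0.34, adjusted p = 0.0216) and at 7 Gy on day 11 (1.16 ± 0.22, adjusted p = 0.021). Ddx58 lost its day 7 call whichever compared library was left out except the 7 Gy library of mTG12 (leave-out range 0.00122 to 0.103). Ddx58 lost its day 11 call without the 0 Gy libraries of mTG11, mTG12 or mTG14 or the 7 Gy library of mTG11 (leave-out range 0.0112 to 0.0881). With time, log2 changes were Sting1 (1.72 ± 0.28), Tlr3 (2.20 ± 0.31), Aim2 (1.60 ± 0.30), Ifi204 (1.94 ± 0.20) and Trim25 (1.12 ± 0.13), with adjusted p at most 0.00108. Sting1 is the adaptor of Cgas, the sensor of cytosolic DNA, which fell with time (-1.09 ± 0.19, adjusted p = 0.000639). At 7 Gy on day 7 Ikbke and Ifi204 rose and Ticam1 fell, with log2 changes of Ikbke (0.94 ± 0.20), Ifi204 (0.87 ± 0.17) and Ticam1 (-0.73 ± 0.18) and adjusted p at most 0.0275, and Ifi204 rose at 7 Gy on day 11 as well (0.98 ± 0.17, adjusted p = 0.0142). Ticam1 lost its day 7 call without the 0 Gy libraries of mTG11 or mTG14 or the 7 Gy libraries of mTG11 or mTG14 (leave-out range 0.0205 to 0.1). Ifi204 lost its day 11 call without the 0 Gy library of mTG12 (leave-out range 0.0248 to 0.0659).

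A further list held 10 genes, most but not all of them regulators that limit the response. Of the 10, 4 rose with time, 2 rose and 1 fell at 7 Gy on day 7, and 1 fell at 7 Gy on day 11. Of all genes 21.3% rose and 20.1% fell with time, 3.2% and 3.75% at 7 Gy on day 7 and 1.06% and 0.462% on day 11. Adar, which edits adenosines in double-stranded RNA, measured 11.4, 10.6 and 9.69 CPM on day 5, 23.7, 15.4 and 14.2 at 0 Gy and 53.4, 28.3 and 39.4 at 7 Gy on day 7, and 24.998, 16.4 and 24.7 at 0 Gy and 40.0, 30.4 and 35.0 at 7 Gy on day 11. Adar at 7 Gy did not overlap the 0 Gy libraries on either day. With time, log2 changes were Adar (1.21 ± 0.23), Isg20 (2.05 ± 0.26), Pias1 (0.45 ± 0.11) and Irf2bp2 (0.68 ± 0.10), with adjusted p at most 0.00528 (Pias1 0.0508 by DESeq2). At 7 Gy on day 7 Trex1, a nuclease that removes cytosolic DNA, and Adar rose and Socs3, an inhibitor of cytokine receptors, fell, with log2 changes of Trex1 (1.34 ± 0.32), Adar (1.18 ± 0.26) and Socs3 (-1.65 ± 0.33) and adjusted p at most 0.0222. Irf2bp2, a corepressor, fell at 7 Gy on day 11 (-0.53 ± 0.10, adjusted p = 0.0205). Trex1 lost its day 7 call without the 0 Gy libraries of mTG12 or mTG14 or the 7 Gy library of mTG11 (leave-out range 0.0138 to 0.103). Adar lost its day 7 call without the 0 Gy library of mTG14 or the 7 Gy library of mTG11 (leave-out range 0.00445 to 0.0591). Irf2bp2 lost its day 11 call whichever compared library was left out except the 7 Gy library of mTG14 (leave-out range 0.0422 to 0.0856).

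Of 17 genes tied to interferon gamma, 9 of 11 tested rose with time (all genes 21.3%), 7 of 14 at 7 Gy on day 7 (3.2%) and 4 of 13 at 7 Gy on day 11 (1.06%), and with the culture block 9, 9 and 10 did. Cxcl10, a chemokine for T cells, measured 1.38, 0.380 and 0 CPM on day 5, 3.39, 1.86 and 2.06 at 0 Gy and 25.1, 6.42 and 9.31 at 7 Gy on day 7, and 0.476, 0 and 0.550 at 0 Gy and 3.49, 2.88 and 4.10 at 7 Gy on day 11. Cxcl10 at 7 Gy was above every 0 Gy library of its day. With time, log2 changes were Irgm1 (1.89 ± 0.33), Tap1 (1.64 ± 0.20), Psmb8 (3.61 ± 0.32), Psmb9 (3.50 ± 0.47), Cd274 (3.78 ± 0.65) and Nlrc5 (1.95 ± 0.65), with adjusted p at most 0.031. Gbp7, Irgm2 and Igtp also rose with time, with adjusted p at most 0.00237, from at most 3 counts on day 5. At 7 Gy the log2 changes of the genes called were Tap1 (1.67 ± 0.26), Irgm1 (1.69 ± 0.37), Cxcl10 (2.47 ± 0.54), Iigp1 (2.59 ± 0.61), Gbp7 (2.11 ± 0.47), Igtp (2.71 ± 0.73) and Nlrc5 (3.44 ± 0.96) on day 7, with adjusted p at most 0.0451, and Tap1 (1.21 ± 0.17), Psmb9 (1.504 ± 0.35), Cxcl10 (3.18 ± 0.53) and Iigp1 (3.35 ± 0.71) on day 11, with adjusted p at most 0.0474. Nlrc5 lost its time call without the day 5 0 Gy libraries of mTG11 or mTG12 or the day 11 0 Gy libraries of mTG11 or mTG14 (leave-out range 0.0182 to 0.117), and by DESeq2 (adjusted p = 0.0975). Irgm1 lost its day 7 call without the 0 Gy library of mTG12 or the 7 Gy library of mTG11 (leave-out range 0.00127 to 0.0574). Cxcl10 lost its day 7 call without the 0 Gy library of mTG14 or the 7 Gy library of mTG11 (leave-out range 0.00542 to 0.0589). Iigp1 lost its day 7 call without the 0 Gy libraries of mTG11 or mTG14 or the 7 Gy library of mTG11 (leave-out range 0.0107 to 0.102). Gbp7 lost its day 7 call without the 0 Gy libraries of mTG12 or mTG14 or the 7 Gy library of mTG11 (leave-out range 0.00654 to 0.0672). Igtp lost its day 7 call without the 0 Gy libraries of mTG12 or mTG14 or the 7 Gy libraries of mTG11 or mTG14 (leave-out range 0.0286 to 0.174). Nlrc5 lost its day 7 call whichever compared library was left out except the 7 Gy library of mTG12 (leave-out range 0.0198 to 0.245). At 0 Gy on day 7 Nlrc5 measured 0.261, 0.265 and 0.257 CPM, all under the floor, which leaves the size of its day 7 change uncertain. Psmb9 lost its day 11 call whichever compared library was left out except the 7 Gy library of mTG12 (leave-out range 0.0486 to 0.166). Iigp1 lost its day 11 call without the 0 Gy libraries of mTG12 or mTG14 or the 7 Gy libraries of mTG11 or mTG12 (leave-out range 0.0471 to 0.116).

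On the genome (GRCm39, GENCODE vM39 gene models) the 45 genes lie on 15 chromosomes, and 21 of them lie in 8 clusters with gaps of at most 100 kb. Exons of 20 genes overlap an exon of another gene. Among the overlaps with protein-coding genes are Ifi27 with Ifi27l2a, Parp9 with Dtx3l, Irf9 with Rnf31 and Irf7 with Phrf1, and an effect of these overlaps on the counts was not tested. Eif2ak2, Ifit1 and Xaf1 had counts that were not whole numbers in all libraries, and Isg15 in 74.1%.

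The promoters of the 45 genes, taken as 250 bases before to 50 bases after the start of the canonical transcript, were searched on both strands for GAAA, any 2 bases and GAAA, a core of the interferon-stimulated response element, and for TTC, any 3 bases and GAA, a core of the sites that STAT dimers bind. The GAAA motif was found in 23 of the 45 (51.1%) and in 835 of 21757 promoters of the same length (3.84%). The TTC motif was found in 6 of the 45 (13.3%) and in 1918 of the 21757 (8.82%). A match is a run of letters and not a shown binding site. To show the GAAA motif in a gene that rose at 7 Gy on day 7, 140 bases around it are printed for Isg15 in lower case, 5′ to 3′ on the strand of the gene (build GRCm39), with each match of the GAAA motif, or of its reverse complement (TTTC, any 2 bases and TTTC), in capitals. The stretch of Isg15 lies at chr4:156285304-156285443 on the minus strand.
Isg15: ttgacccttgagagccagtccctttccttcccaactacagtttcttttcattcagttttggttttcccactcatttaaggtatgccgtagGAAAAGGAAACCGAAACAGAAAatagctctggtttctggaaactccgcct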

How the data were processed

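The authors deposited a table of estimated counts for 50559 genes in 27 libraries, and all 27 columns were used, with 0 left out. Some of the estimated counts were not whole numbers, and they were rounded for the tests while CPM used them as deposited. Why they were not whole was not tested. The submitters' processing notes name STAR for the alignment to GRCm39 and edgeR, with no version for either. Library totals ran from 2528866 to 5723150 counts.

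Tests used edgeR 4.0.16 (TMM factors, quasi-likelihood F test, a total of 10 counts or more in the fit's libraries for each gene) in R 4.3.3, with 1 fit for the 9 unexposed libraries, 1 for each of days 7 and 11, 1 for both days and 1 for the culture term. A gene was called at an adjusted p under 0.05 (Benjamini-Hochberg over all genes of the fit). The alternatives were DESeq2 1.42.0, no TMM factors, the filter of edgeR's own function, no filter beyond 1 count, culture as a block, thinning all libraries to the smallest, fits of the compared groups alone, and leaving out each library or each culture. Leaving out a culture together with the block was chosen after seeing the data.

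Culture came from the identifiers mTG11, mTG12 and mTG14 in the column names. To check this pairing, residuals after removal of the group means were correlated over 9537 genes, and every same-culture pair was over 0.1, with the lowest at 0.134 in the unexposed libraries, 0.237 on day 7 and 0.286 on day 11.

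Members and lists were chosen with earlier results of these data known. Values in every library are given for the 5 members with the largest rise or fall among those called in each of the 3 comparisons (day 11 against day 5 at 0 Gy, and 7 Gy against 0 Gy on each day), for fixed members of each role, and for the 5 members with the largest F for culture. Other genes of the pathway come from fixed lists and those given with a test passed it in at least 1 of the 3 comparisons, with Ifnb1, Ifnar1, Irf1 and Irf3 named in any case. Folds against groups without a count use a floor of 3 counts over the group. Intervals of ratios cover counting error and no variation between cultures. The seed was 1.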

Additional observations from a re-analysis of the deposited data

Results flagged for a closer look

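The 7 Gy response of 6 of the 8 p53 targets was smaller on day 11 than on day 7 by the test of the difference (Eda2r, Cdkn1a, Ccng1, Mdm2, Sesn2 and Trp53inp1). The summed level of all 8 targets at 7 Gy was 2.70, 2.63 and 2.13 times that at 0 Gy on day 7 and 1.04, 1.20 and 1.24 times on day 11.

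With the culture block, the test of the difference between days passed for 1 interferon-stimulated gene with a larger 7 Gy response on day 11, Ifi27l2a, and for 9 with a smaller response, Ifit1, Ifit3b, Mx1, Lgals3bp, Ifi35, Xaf1, Irf7, Oas3 and Ifi44. Without the block 0 passed by edgeR in either direction, with 0 larger and 4 smaller at an unadjusted p under 0.05, and 0 by DESeq2.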

How the results depend on the processing

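The counts of interferon-stimulated genes called depended on the processing at the lower doses, on day 11 and in other comparisons. From day 5 to day 7 at 0 Gy 25 rose in the main fit, 35 with no filter beyond 1 count and 31 with the culture block. Among all genes 2211 of 18442, 2671 of 27129 and 2579 of 18442 rose in these fits. With no filter beyond 1 count, 12 genes rose at 2 Gy and 35 at 4 Gy on day 7, and 29, 35 and 42 at 2, 4 and 7 Gy on day 11, with 27 slopes on day 11 and 2 larger and 21 smaller 7 Gy responses on day 11 than on day 7. For these doses, slopes and differences the share of all genes under that filter is not given, so the counts are not set against it. DESeq2 called 5 genes at 4 Gy on day 7, and 2 at 4 Gy, 23 at 7 Gy and 22 slopes on day 11. Thinning to the smallest library gave 1 gene at 4 Gy on day 7, and a fit of the compared groups alone gave 9. For these fits too the share of all genes is not given, and the counts are not set against it.

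With culture as a block, 4 and 31 genes rose at 2 and 4 Gy on day 7, and 20, 32 and 42 at 2, 4 and 7 Gy on day 11, with 40 slopes on day 11 and 1 larger and 9 smaller 7 Gy responses. With the block and without mTG11, mTG12 or mTG14, the counts were 0, 7 and 0 at 2 Gy and 13, 30 and 23 at 4 Gy on day 7. On day 11 they were 8, 19 and 4 at 2 Gy, 19, 28 and 21 at 4 Gy, 36, 37 and 35 at 7 Gy and 32, 32 and 37 for slopes, with 1, 1 and 1 larger responses. These fits with the block and a culture left out were chosen after seeing the data. Their share of all genes is not given, so the counts are not set against it.

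Leaving out 1 library or 1 culture without the block gave 8 to 24 genes from day 5 to day 7, 10 to 31 from day 7 to day 11 and 39 to 44 from day 5 to day 11. On day 7 it gave 0 to 0 at 2 Gy, 0 to 1 at 4 Gy, 0 to 37 at 7 Gy and 15 to 38 slopes. On day 11 it gave 0 to 0 at 2 and 4 Gy, 0 to 27 at 7 Gy and 0 to 26 slopes, with 0 to 0 for the interaction and 40 to 42 for the culture term. The 0 at 7 Gy on either day came without mTG14. The share of all genes in these leave-out fits is not given. A group left with 2 libraries shares its estimate of spread with the other groups.

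For the log2 changes of 26 members and 41 other genes of the pathway, 0 changed sign where called. Of 435 values, DESeq2 left the call of 404 as it was and no TMM factors 421, while the culture block left 304 and brought 131 past the threshold. Over the fits without 1 library 244 of 3078 values no longer passed and 33 newly passed.

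The limits of these data are 3 cultures, with 1 library of each per group, and totals that leave many of the genes near the floor on day 5. Unexposed organoids changed between the days as well, so that dose was read within a day. Cell numbers were not measured. The cause of the differences between cultures was not tested.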
